A study of Homo sapiens with 6 samples.

Results

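Chromosome 5 was described from Hi-C maps of the human colorectal cancer line HCT116, a standard laboratory line, and of DKO1, made from HCT116 by knocking out DNMT1 and DNMT3B, both genes of DNA methyltransferases. Its members were all bins of 20 kb that both compartment tracks hold for this chromosome, joined by position, and all of its entries in the domain lists of both lines. There were 8798 such bins among 140474 over the whole genome, 218 of 4289 domains in HCT116 and 80 of 1823 domains in DKO1. Hi-C joins DNA ends that lie close together in the nucleus, and the first principal component of the map, PC1, separates chromatin into an open, gene-rich compartment A and a compact compartment B. The series holds 6 libraries, 3 of each line, with both lines grown in the same medium and no treatment named. Replicates share their files according to the labels, so each line has 1 pooled value per bin and 1 list of domains. No value therefore has a replicate error, the lines could not be tested against each other, and all differences are between these maps. DKO1 is known to be 1 clone, so the effect of the knockouts cannot be told apart from other differences of that clone.

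DNMT1 copies DNA methylation onto new strands after replication and DNMT3B places it on unmethylated sites. Whether either protein was wholly lost in DKO1 cannot be told from Hi-C maps, which do not measure methylation either. Compartments follow gene density and replication timing closely, and topologically associating domains, in which chromatin contacts itself more than its surroundings, are set largely by loop extrusion between CTCF sites. Chromosome 5 carries the telomerase gene TERT near the end of its short arm, followed by a gene-poor stretch that holds the cadherin genes CDH18, CDH12, CDH10 and CDH9. On its long arm lie APC, the tumour suppressor gene most often lost in colorectal cancer, and the clustered protocadherins, of which PCDHA1 is the first. This order was taken from the RefSeq annotation of another build, and genes were not placed on the positions below, which are those of hg19, the build that the submitters' processing notes name.

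The chromosome was chosen by its large share of switched bins, measured from PC1 in these same tracks, so the shares of switched bins are given as a description. A positive deposited PC1 was called A and a negative one B, and PC1 is in units of the SD of each chromosome, because the deposited values of chromosome 5 average 0 in each line, with an SD of 1.0001. In HCT116 59.5% of the bins were A and in DKO1 48.7%. The A-to-B bins, positive in HCT116 but negative in DKO1, numbered 1418, or 16.1% of the chromosome (28.36 Mb), beside 8.92% of the bins of all autosomes. Bins with the opposite switch numbered 470, or 5.34% (9.4 Mb), beside 4.40%. At the limit of the rule, the switched bin nearest to 0 had values of 2.28e-05 for HCT116 and -1.39 for DKO1, and the bin nearest to 0 that did not switch had -6.36e-06 and -0.21. Between the lines, PC1 had a Pearson r of 0.83 and a Spearman rho of 0.84 over the bins, which describes bins that share a map and are not independent. By switched share chromosome 5, at 21.5%, stood behind chromosomes 13 (26.4%) and 7 (23.6%) and above the other 19 autosomes, whose order is shown in the plot of switched bins per autosome.

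**Figure D1:**
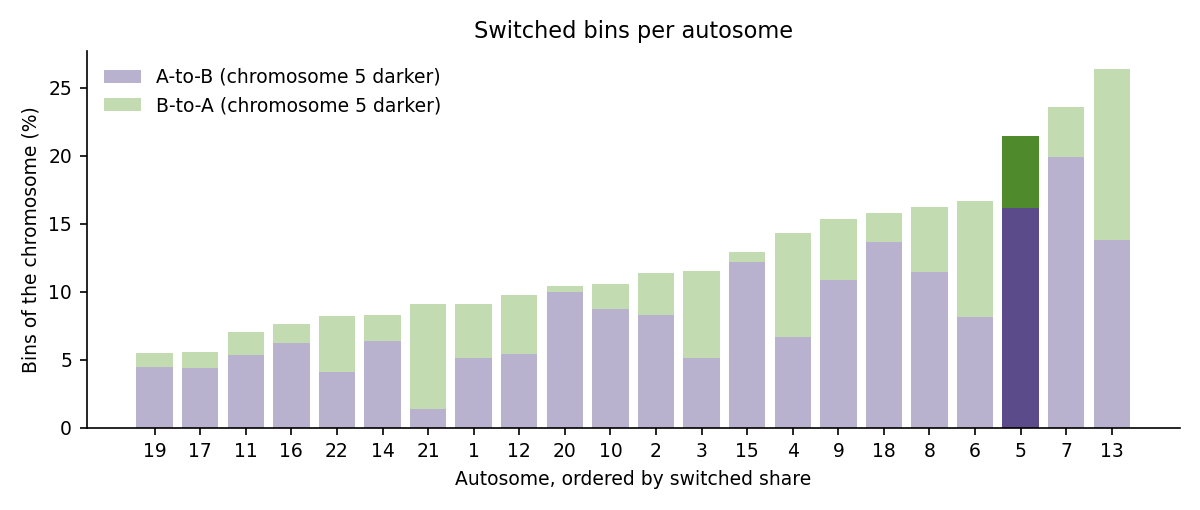
Percentage of 20 kb bins per autosome whose compartment differed between the lines, with A-to-B (A in HCT116, B in DKO1) below and B-to-A above in each bar, ordered by their sum. Chromosome 5, in darker colours, reached 21.5% and stood just behind chromosomes 13 and 7.

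With PC1 as deposited, the arms differed in which way their bins switched. The centromere was taken as the largest gap between bins, at 46400001 to 49420000, which left 2320 bins on the short arm and 6478 on the long arm. A second gap of 1.76 Mb lay on the long arm at 68880001 to 70640000. On the long arm 15.8% of the bins switched from A to B and 3.44% from B to A. On the short arm 17% switched from A to B and 10.6% from B to A. The lead of A-to-B bins on the short arm depended on where 0 was placed: after the chromosome's median was subtracted from each track, the short arm had 10.8% A-to-B and 17% B-to-A bins. On the long arm that setting gave 8.69% and 6.47%, an excess that mirrors the one on the short arm because median subtraction makes both directions equal over the chromosome. Mean PC1 on the short arm was -0.07 in HCT116 and 0.12 in DKO1, and on the long arm it was 0.02 and -0.04. After these arm means were subtracted, A-to-B bins led on both arms. The short arm then had 24.6% A-to-B and 4.44% B-to-A bins, and the long arm 14% and 4.21%. The contrast in direction between the arms thus depended on the offset between their means.

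PC1 on the short arm was also flatter in DKO1. Its SD there was 0.88 in HCT116 and 0.55 in DKO1, a ratio of 0.62, whereas on the long arm the SDs were 1.04 and 1.12, with a ratio of 1.07. Among the 34 arms of the 17 autosomes that are not acrocentric, 5p had the lowest such ratio, and the other 32 arms beside 5p and 5q lay between 0.80 and 1.24. The short arm of chromosome 5 also had the lowest r of these arms (0.74, others 0.75 to 0.97) and the highest switched share (27.6%, others 4.75% to 25.3%). Its r was close to those of 4p and 6q, at 0.75 each. Both ranks are a description, since the chromosome was chosen by its switched share. The deepest B bins of the arm differed most. Short-arm bins with an HCT116 PC1 of -1 or less had a mean of -1.42 in HCT116 and -0.39 in DKO1, and on the long arm the same class had means of -1.73 and -1.45. Because each chromosome was scaled to 1 SD as a whole, a flatter short arm goes with a steeper remainder, and only the contrast within the chromosome is measured.

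In windows of 5 Mb the difference between the lines followed stretches of many megabases. Of 36 windows with at least 50 bins, mean PC1 was lower in DKO1 in 14 and higher in 22. This majority depended on the placement of windows, since mean PC1 was lower in 20 of 37 windows shifted by 2.5 Mb and in 50 of 91 windows of 2 Mb. In the windows as placed, the share of A was lower in 21 and higher in 15. The means ranged from -1.87 to 1.08 in HCT116 and from -1.80 to 1.06 in DKO1. Over these windows the 2 sets of means correlated with an r of 0.75, below the value of 18 of the other 21 autosomes, whose median was 0.93. Differences between windows made up 48.3% of the variance of the bin-by-bin difference on chromosome 5. On chromosome 13 they made up 51.7%, on chromosome 6 49.6% and on chromosome 7 47.8%, and the median of the other 21 autosomes was 31.3%. Chromosome 5 had rank 3 of 22 by this measure.

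**Figure D2:**
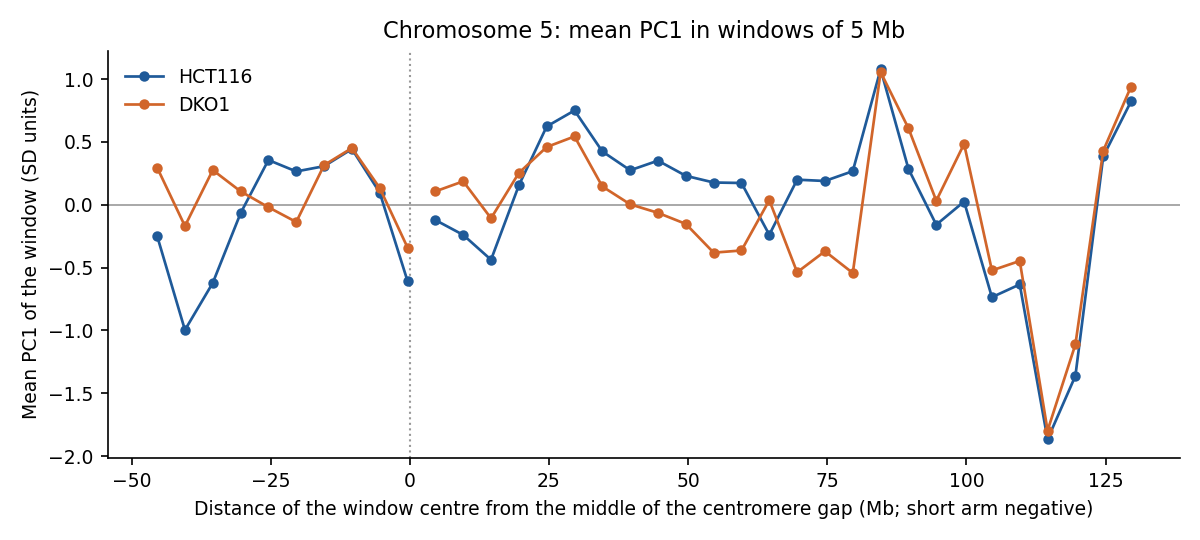
Mean PC1 of each 5 Mb window of chromosome 5 in HCT116 (blue) and DKO1 (orange), in SD units, against the distance of the window from the middle of the centromere gap. DKO1 was higher near the end of the short arm and lower in most windows between about 30 and 80 Mb into the long arm, and both lines followed a like course in the distal long arm, where DKO1 was higher and the lowest means were -1.87 and -1.80.

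The first 15 Mb of the short arm had higher PC1 in DKO1. In the window from 0 to 5 Mb the mean was -0.25 in HCT116 and 0.30 in DKO1. From 5 to 10 Mb it was -0.996 and -0.17, and from 10 to 15 Mb -0.62 and 0.28. These were the 3 largest rises of the chromosome. No bin of the 750 in this stretch went from A to B, and 122, or 16.3%, went from B to A. Over the stretch r was 0.93 and rho, by ranks, 0.79, and the SD was 1.12 in HCT116 and 0.74 in DKO1. B bins came nearer to 0 here while A bins stayed positive.

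Further along the short arm the difference had the other sign. From 20 to 25 Mb every bin was A in HCT116, where the mean PC1 was only 0.36, and 44.4% of the bins were A in DKO1, where it was -0.02. From 25 to 30 Mb A bins made up 90.4% in HCT116 but 27.2% in DKO1, with means of 0.27 and -0.14. The A-to-B shares of these windows, 55.6% and 64.4%, were the third highest and the highest of the chromosome. PC1 varied little in both lines, with SDs of 0.17 and 0.24 over the 10 Mb, and r was 0.46. None of the other 34 windows with at least 50 bins had an r as low as these, at 0.42 each.

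The largest stretch of lower PC1 in DKO1 lay on the long arm between 80 and 130 Mb. From 80 to 110 Mb A bins made up 68.1% in HCT116 but 36.6% in DKO1, and mean PC1 was 0.27 and -0.14. From 115 to 130 Mb the share of A was 63.3% and 20%, with means of 0.22 and -0.48. Within the second of these the window from 125 to 130 Mb had the largest fall of the chromosome, from 0.27 to -0.54, followed by that from 115 to 120 Mb, from 0.20 to -0.54. The window between the stretches, from 110 to 115 Mb, went the other way, with means of -0.24 and 0.04, and 50.8% and 54.0% of its bins were A. The local pattern was partly kept where the level was not: r was 0.84 from 80 to 110 Mb and 0.77 from 115 to 130 Mb. By window it lay between 0.64, from 120 to 125 Mb, and 0.91, from 115 to 120 Mb. In the latter window 38.8% of the bins went from A to B. Over the 9 windows of the chromosome with at least 30% A-to-B bins the median r was 0.76, beside 0.85 over all windows.

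These stretches held most of the A-to-B bins. The limits of 20 to 30, 80 to 110 and 115 to 130 Mb were set after the window values were seen, so the following shares are a description. The 3 stretches held 31.3% of the bins of the chromosome, 78.7% of its A-to-B bins and 4.68% of its B-to-A bins. They were 71.7% A in HCT116 and 31.9% A in DKO1. The rest of the chromosome was 54.0% A in HCT116 and 56.4% A in DKO1, with 4.99% A-to-B and 7.41% B-to-A bins. Since the stretches were picked for their lower PC1 in DKO1, a smaller difference in the share of A on the rest follows from the choice.

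**Figure D3:**
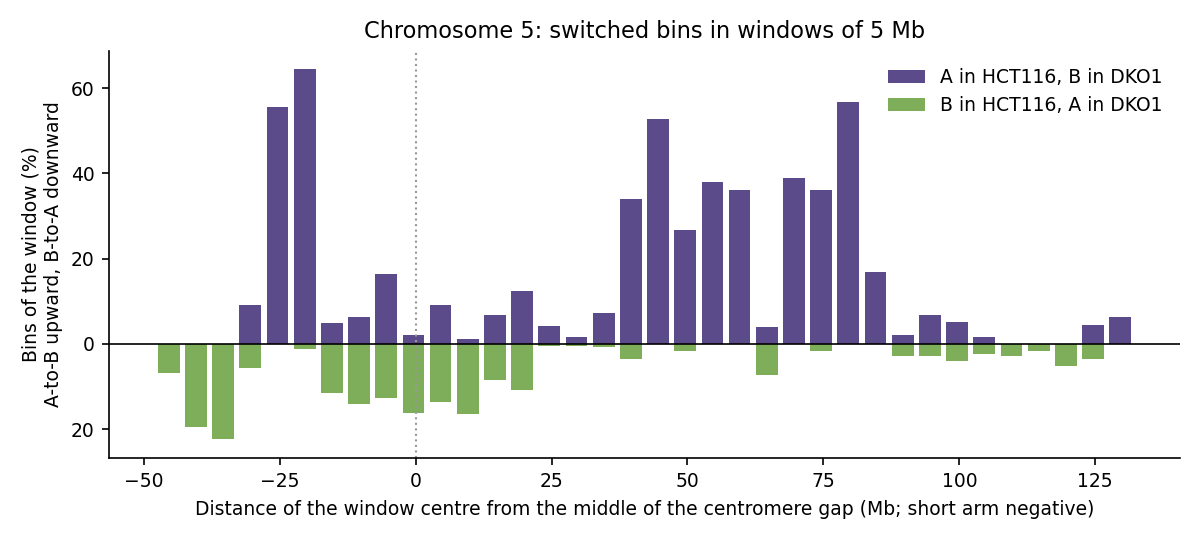
Percentage of the bins of each 5 Mb window of chromosome 5 that went from A to B between HCT116 and DKO1 (purple, upward) or the opposite (green, downward), against the distance from the middle of the centromere gap. A-to-B bins are gathered in 1 stretch of the short arm, with up to 64.4% of a window, and in a long stretch of the long arm, and B-to-A bins are most frequent towards the end of the short arm and around the centromere.

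Few bins of the distal long arm switched up to 180 Mb. From 135 to 180 Mb A bins made up 44.8% in HCT116 against 44.7% in DKO1, r was 0.96, and 5.73% of the bins switched, beside 13.3% of all autosomal bins. The level was not the same, since PC1 averaged -0.36 in HCT116 against -0.15 in DKO1, and it was higher in DKO1 in each of the 9 windows. The windows with the lowest switched shares were those from 160 to 165 Mb (1.6%), 75 to 80 Mb (2%) and 155 to 160 Mb (2.8%). The window from 160 to 165 Mb was the deepest B of the chromosome in both lines, with means of -1.87 and -1.80, and 2.4% and 4% of its bins were A. Among windows with at least 50 bins, that from 130 to 135 Mb had the highest mean in both lines, 1.08 and 1.06. Its SD was 0.46 in HCT116 and 1.10 in DKO1. The contrast within windows differed along the chromosome in the same manner. The SD was lower in DKO1 in 13 of the 16 windows up to 80 Mb, with a median ratio of 0.73, and higher in 19 of the 20 windows beyond, with a median ratio of 1.27. The limit of 80 Mb was set after the values were seen.

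Many bins of chromosome 5 lay near the sign limit before any comparison. In HCT116 40.3% of them had an absolute PC1 under 0.5, more than on any other autosome (13.5% to 34.6%), and in DKO1 44.7% did, again the most (18.8% to 41.4%). Weak A bins, with an HCT116 PC1 from 0 to 0.5, were 25.5% of the chromosome and 14.6% of the other autosomes, and 54.7% and 44.1% of them switched. Of all A-to-B bins on chromosome 5, 86.4% had an HCT116 PC1 under 0.5, and their median was 0.26 in HCT116 and -0.29 in DKO1. On the other autosomes most A-to-B bins were weak as well, with 76.4% under 0.5 and medians of 0.28 and -0.28. With a PC1 of at least 0.5 in size in both lines, 21 A-to-B bins and 7 B-to-A bins remained. Among the bins passing this minimum these were 0.58% and 0.19%, beside 0.485% and 0.462% over all autosomes. If every class of HCT116 PC1 had switched as often as on the other autosomes, 13.2% of chromosome 5 would have gone from A to B and 3.94% from B to A, where 16.1% and 5.34% were counted and 8.41% and 4.33% was the share over the other autosomes. The short arm exceeded its value for B to A (10.6% against 3.45%) and the long arm its value for A to B (15.8% against 12.2%). Since the chromosome was chosen by its switched share, an excess over the other autosomes goes with the choice and is a description. The B-to-A share of the short arm also depended on the placement of 0. It was 4.44% after arm means were subtracted and 17% after the median was. The values at the rates of the other autosomes were not recomputed for these settings. The B class from -1 to -0.5 differed most from the other autosomes in relative terms, since 24.2% of it switched on chromosome 5 and 8.30% elsewhere, but it held 5.25% of the bins.

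**Figure D4:**
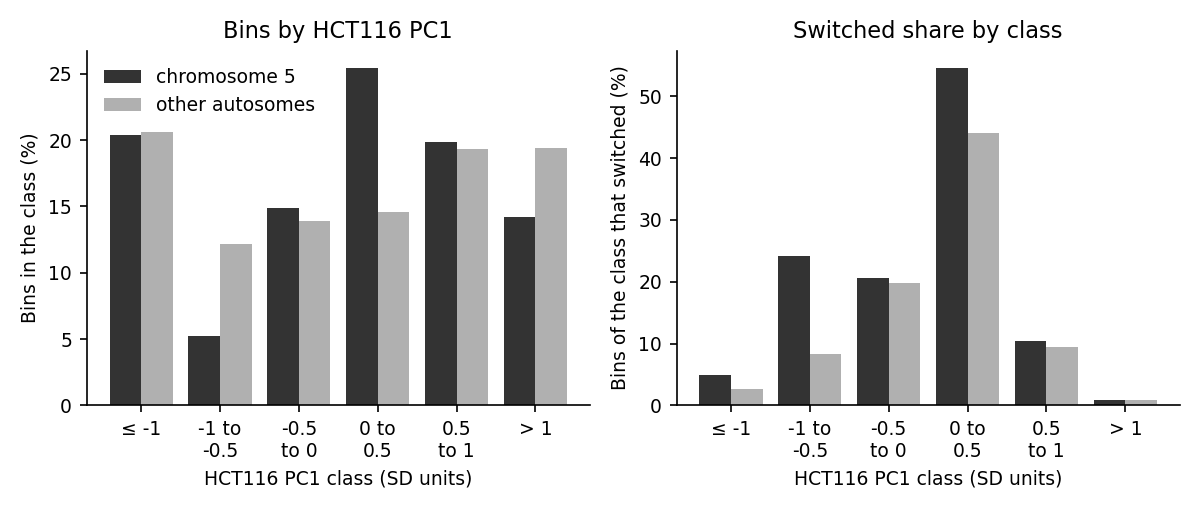
Left, percentage of 20 kb bins in classes of HCT116 PC1, on chromosome 5 (dark) and the other autosomes (grey). Right, percentage of the bins of each class whose sign differed in DKO1. The class from 0 to 0.5 held 25.5% of chromosome 5 and 14.6% of the other autosomes, and it had the highest switched share in both.

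Sign changes along the track and gaps between bins split it into 377 compartment intervals in HCT116 and 465 in DKO1. The gain lay on the short arm. There the number was 88 in HCT116 and 180 in DKO1, and on the long arm it was 289 and 285. After a running mean over 5 bins the short arm had 50 and 102 intervals and the long arm 165 and 183. The longest A interval measured 7540 kb in HCT116 and 4880 kb in DKO1, while the longest B interval measured 4740 kb and 4720 kb. Of 77 HCT116 A intervals of at least 200 kb, 17 stayed A in every bin, 50 in some and 10 in none. Of 59 B intervals of that length, 23 stayed B in every bin, 35 in some and 1 in none. All 23 were on the long arm, and the 15 long B intervals of the short arm each held at least 1 bin that was A in DKO1. Of 376 compartment borders in HCT116, 26.6% (Wilson 95% interval 22.4 to 31.3, for counting error only) had a DKO1 border within 40 kb. These borders include the breaks at gaps between bins. No values of the other autosomes stand beside the kept intervals and borders, so they are not read as particular to chromosome 5.

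The switched bins formed 260 runs from A to B and 136 from B to A. Among A-to-B bins 56.6% lay in the 46 runs that reached 200 kb, and among B-to-A bins 17.7% lay in 7 such runs. Runs of the other autosomes were not summarised, so these numbers are not read as particular to chromosome 5. The longest A-to-B runs, of 840 and 700 kb, lay close together on the short arm, at 25260001 to 26100000 and 24400001 to 25100000, followed there by a run of 600 kb at 26460001 to 27060000. In the first of them PC1 averaged 0.26 in HCT116 against -0.33 in DKO1. Its bins lay between 0.03 and 0.48 in HCT116 and between -0.51 and -0.06 in DKO1. The second had means of 0.22 and -0.38, and the third 0.29 and -0.25. No DKO1 domain touched any of these runs, and HCT116 domains touched only the second. On the long arm the runs of the same length, 600 kb, at 92920001 to 93520000 and 115620001 to 116220000 went from 0.41 to -0.15 and from 0.29 to -0.56.

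The runs with the largest differences were shorter. From A to B these were a run of 120 kb near the end of the long arm, at 180320001 to 180440000, with means of 1.12 and -0.61, and a pair at 129780001 to 129940000 and 129080001 to 129640000. The pair lay in the window with the largest fall, and its members had means of 0.38 and -1.07 and of 0.29 and -1.01. From B to A the 3 largest differences all lay in the first 15 Mb, at 12780001 to 12900000, 13720001 to 13820000 and 3280001 to 3380000. The first of these had a mean of -1.66 in HCT116 and 0.16 in DKO1, the second -1.55 and 0.24, and the third -1.57 and 0.13. All 3 formed a new A interval inside B, and no domain of either list touched them. The longest B-to-A runs measured 300 kb, at 66160001 to 66460000, and 280 kb, at 5140001 to 5420000, with means of -0.68 and 0.32 and of -0.76 and 0.33. The run at 58280001 to 58540000 went from -1.10 to 0.19, with 2 domains over it in HCT116 and 1 in DKO1.

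Part of these differences was shared with the surrounding megabases. In the 10 Mb around the longest A-to-B run PC1 averaged 0.27 in HCT116 against -0.10 in DKO1, and around the largest B-to-A run it was -0.71 and 0.08. In HCT116 the A-to-B runs of 840 and 700 kb already averaged below their surrounding 10 Mb (0.26 against 0.27 and 0.22 against 0.32). So did the pair at 129780001 and 129080001 (0.38 against 0.66 and 0.29 against 0.59). The other named A-to-B runs averaged above theirs. After a 10 Mb running mean was subtracted from each track, the 16 named runs all kept the direction of their difference, but its size changed by over 1.5 times in 11 of them, and the mean PC1 kept its sign in both lines in 10, so that 6 no longer counted as switched. By the same subtraction 11.8% of the chromosome went from A to B and 5.71% from B to A, and chromosome 5 ranked second of 22 autosomes by the sum, with 17.5% against a median of 12.0% for the others.

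DKO1 had fewer domains than HCT116, and the difference was larger on the short arm. The short arm held 43 domains in HCT116 and 11 in DKO1, or 25.6%, and the long arm held 174 and 68, or 39.1%. The remaining entry of each list spanned the centromere gap, at 45840001 to 49600000 in HCT116 and 45800001 to 49600000 in DKO1, with PC1 bins over 19.7% and 20.5% of its length. Over the whole chromosome DKO1 had 36.7% as many domains as HCT116, below the median of 42.5% for the other autosomes but within their range of 24.3% to 56.7%. The median length was 280 kb in HCT116 and 240 kb in DKO1. The number of domains called can depend on sequencing depth, which the files do not give, and its part in the difference was not tested.

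The domains of DKO1 were mostly a subset of those of HCT116. Of the 80 DKO1 domains, 65, or 81.3% (71.3 to 88.3, Wilson 95%), had an HCT116 domain with a reciprocal overlap of at least 80%, beside 84.0% on all autosomes. In the other direction 29.8% (24.1 to 36.2) of the 218 HCT116 domains were matched, beside 35.9%. All 11 DKO1 domains of the short arm were matched. The 15 unmatched DKO1 domains each touched an HCT116 domain, and 133 of the 153 unmatched HCT116 domains were touched by no DKO1 domain. Within 40 kb, 93.3% (87.7 to 96.4) of 134 DKO1 boundaries were found in HCT116, beside 92.5% on all autosomes, and 38.4% (33.3 to 43.7) of 331 HCT116 boundaries were found in DKO1, beside 45.2%. These shares lie near those of all autosomes for the DKO1 list and below them for the HCT116 list. Single autosomes varied widely, with 17.5% to 46.3% of HCT116 domains matched on the others. Chromosome 5 had rank 5 of 22 from the lowest. For HCT116 boundaries found in DKO1 the others ranged from 26.4% to 67.1%. The intervals take domains as independent, although neighbours share ends.

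The domain count per window did not follow the PC1 difference alone. DKO1 never had more domains than HCT116 in any of the 36 windows. The window from 145 to 150 Mb had the most in both lists, 16 in HCT116 and 10 in DKO1. Of the 22 windows with at least 5 HCT116 domains, the highest percentages in DKO1 were found at 0 to 5 Mb (6 of 8, 75%), 140 to 145 Mb (6 of 8, 75%) and 145 to 150 Mb (62.5%). The lowest were found on either side of the centromere, at 40 to 45 Mb and 60 to 65 Mb, where 6 domains stood against 0 in each, and at 35 to 40 Mb, where 10 stood against 1. In the window from 35 to 40 Mb mean PC1 was nearly equal, at 0.44 and 0.45, and the share of A was 80% and 87.6%. The 14 windows with a lower mean PC1 in DKO1 had 7.50 HCT116 and 2.02 DKO1 domains per 10 Mb. The 22 windows with a higher mean had 15.6 and 6.14.

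**Figure D5:**
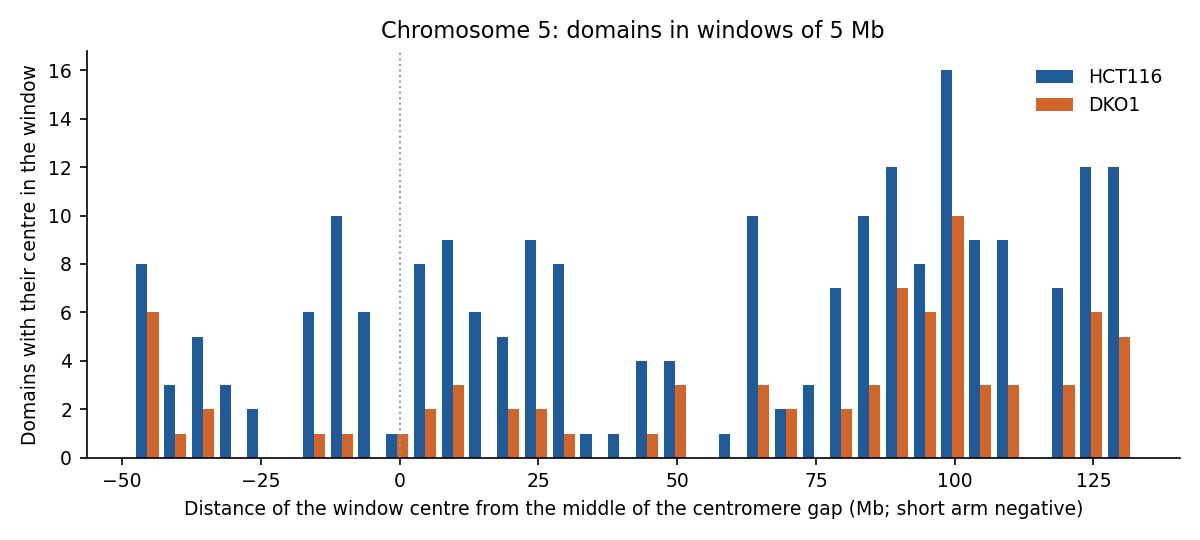
Number of domains with their centre in each 5 Mb window of chromosome 5, in HCT116 (blue) and DKO1 (orange), against the distance from the middle of the centromere gap. HCT116 had at least as many as DKO1 in every window plotted, with up to 16 against 10 in the distal long arm and several windows without any DKO1 domain.

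The longest stretches without domains in DKO1 lay where mean PC1 was weak in HCT116. In DKO1 the longest such stretch ran for 17.2 Mb of the short arm, from 14360001 to 31560000, and 7 HCT116 domains touched it. It was 81.0% A in HCT116 and 44.9% A in DKO1, with mean PC1 of 0.18 and 0.02. The next ran for 13.1 Mb, from 98400001 to 111480000, where 55.0% of the bins were A in HCT116 and 21.7% in DKO1, and 4 HCT116 domains touched it. In HCT116 the longest stretch without domains lay inside this one, at 98440001 to 109760000 (11.3 Mb). The second in HCT116, at 159880001 to 167680000 (7.8 Mb), was the deep B portion with PC1 means of -1.87 and -1.81. In HCT116 stretches without domains thus occurred both at a weak positive mean PC1 and in strong B chromatin.

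Domains of compartment A on chromosome 5 were matched less often than those of the other autosomes. Of 154 HCT116 domains with a positive mean PC1, 32.5% (25.6 to 40.2) were matched in DKO1, against 45.6% (43.7 to 47.5) of 2606 on the other autosomes. Of the 63 domains of compartment B, 23.8% (15 to 35.6) were matched, against 16.6% (14.7 to 18.8). The intervals of A and B overlap on chromosome 5, and those of the other autosomes do not. Chromosome 5 has far fewer domains and so wider intervals, and the overlap does not show that A and B were matched alike. The 18 HCT116 domains whose mean PC1 was A in HCT116 and B in DKO1 included 0 matched ones, which allows a share of up to 16.7% by a limit of 3 counts and 17.6% by the Wilson interval, where 45 of 203 such domains were matched on the other autosomes (22.2%, 17 to 28.4). These Wilson intervals overlap. Among 136 domains with positive PC1 in both lines the matched share was 36.8% (29.1 to 45.1), against 47.6% (45.6 to 49.6). Among the DKO1 domains, 26.9% of the 78 with PC1 values were B in HCT116, against 15.8% on the other autosomes.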

How the data were processed

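The members of chromosome 5, the windows and the alternatives were chosen with earlier results of these data known. The deposited PC1 score, per the file headers, was given for 20 kb bins, and the deposited domain lists held starts and ends on a 40 kb grid without a score. HOMER 4.6, HiC-Pro and hg19 (GRCh37) are named, per the submitters' processing notes, with no role for each. The domain caller and the filters were not given in the sources used here, depth is unknown, and the sign of PC1 was taken as deposited. Contact maps were not used here.

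Bins were joined between tracks on chromosome and start, and consecutive bins switched the same way formed a run. A run was a new interval where no adjoining bin had the new compartment in HCT116. Windows of 5 Mb were counted from position 0, those under 50 bins were left out of counts, and a domain belonged to the window of its centre. A match of domains needed 80% reciprocal overlap, and one of boundaries a distance of at most 40 kb. The regions named were, per direction, the 5 longest runs and the 3 runs of 100 kb or more that differed most, and the 3 highest and 3 lowest windows by switched share, PC1 difference and domain percentage, of which the main ones are described. The stretches of several windows, the classes of PC1 and the arms as reference were added after the values were seen. Acrocentric chromosomes were left out of the arms because the largest gap there need not be the centromere. The run function was tested on simulated data, where 50 runs planted in the HCT116 track of chromosome 5 were all recovered. No sequence was printed, since no genome of the files' build was used. The computations used Python 3.11.15, numpy 2.4.6, pandas 2.3.3, scipy 1.17.1 and matplotlib 3.10.9.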

Additional observations from a re-analysis of the deposited data

How the results depend on the processing

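No paired analysis was possible because the 3 replicates of each line share 1 pooled track and 1 list, which also prevented leaving out a replicate. The sign of the difference was the same in all 16 named runs under the 4 settings tried for them, but after the 10 Mb running mean 10 of them still had opposite signs in the 2 lines as deposited, and 6 did not. In the order A in HCT116, A in DKO1, A to B and B to A, in percent of chromosome 5, the main values were 59.5, 48.7, 16.1 and 5.34. Median subtraction gave 50, 50, 9.24 and 9.24, equal by construction. Subtracting a 10 Mb running mean gave 50.2, 44.1, 11.8 and 5.71, and subtracting the mean of each 5 Mb window 49.8, 45.8, 10.2 and 6.19. Leaving out the 3 stretches gave 54.0, 56.4, 4.99 and 7.41. These last 2 settings were chosen after seeing the data. A minimum of 0.5 gave 59.1, 0.58 and 0.19 for the last 3 values, a DKO1 track shifted to the A share of HCT116 gave 59.5, 9.89 and 9.90, and subtracting arm means gave 47.0 for DKO1 and 4.27 for B to A. The A-to-B and B-to-A shares of the short arm, 17 and 10.6, became 0 and 0.31 with the minimum, 10.8 and 17 with median subtraction, 24.6 and 4.44 with arm means, 13.5 and 8.49 with the running mean and 7.16 and 19.4 with the shift. Those of the long arm, 15.8 and 3.44, became 0.71 and 0.17, 8.69 and 6.47, 14 and 4.21, 11.1 and 4.71, and 10.9 and 6.48 in the same order, so that A to B exceeded B to A throughout on the long arm only, which under median subtraction mirrors the short arm by construction. The order on the short arm turned with the placement of 0. Smoothing and leaving out 2 Mb at the centromere and ends moved none of these shares beyond its binomial interval. That interval takes bins as independent, which neighbouring bins are not, so it served only as a rough limit. On the short arm r was 0.84 after the running mean. Smoothing over 5 bins gave 215 and 285 intervals. Windows with a lower share of A in DKO1 were 58.3% of all, and 33.3% after median subtraction. Mean PC1 was lower in DKO1 in 14 of 36 windows, in 20 of 37 shifted by 2.5 Mb, in 50 of 91 of 2 Mb and in 7 of 18 of 10 Mb. Boundaries of DKO1 and HCT116 were found in 79.1% and 32.0% at tolerance 0, and those of DKO1 in 98.5% at 120 kb. DKO1 domains were matched in 97.5% at an overlap of 50% and 65% at 90%, and HCT116 domains in 23.9% at 90%. Without chromosomes 7 and 13, which alone had a higher switched share, the rank of chromosome 5 was 1 by construction. The depth of both maps is unknown.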
